A study of Mus musculus with 29 samples.

Results

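*Lipg*, which encodes endothelial lipase, and 8 further genes of lipid hydrolysis were followed across 9 groups of macrophages sorted from mouse spleen and liver. The genes were taken by symbol from a table of 23930 genes, and all 9 were found. They comprise the secreted lipases *Lipg*, *Lpl* and *Lipc*, 2 partners of secreted lipases (*Gpihbp1* and *Angptl4*) and the intracellular lipases *Lipa*, *Pnpla2*, *Lipe* and *Mgll*. *Lipg* was chosen by its measured level, because no gene rose more without RNase T2 in the hepatic Ly6C low subset, and the other genes were added as lipases and lipase partners. The values of all 9 genes in that comparison are therefore given as a description, without a test, and so are those of *Lipg* in every comparison that uses the same libraries.

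Macrophages came from untreated C57BL/6 wild-type mice and from *Rnaset2*-/- mice, which lack RNase T2 in all cells because both of its genes, *Rnaset2a* and *Rnaset2b*, are deleted. Ly6C hi macrophages were sorted as CD11b-positive cells with high Ly6C, and Ly6C low macrophages as CD11b-positive cells with low Ly6C and surface FcγRIV (the product of *Fcgr4*), both without Ly6G, SiglecF and NK1.1, by the labels. For the liver of *Rnaset2*-/- mice the study's methods instead print an identical gate, of low Ly6C and high FcγRIV, for both subsets, so how the hepatic *Rnaset2*-/- Ly6C hi libraries were gated is uncertain, and every value of that group is given under its label. Kupffer cells (KCs), the resident macrophages of the liver, were sorted as F4/80-positive, Tim4-positive cells with intermediate CD11b and low PDCA-1. Each subset and genotype had 3 libraries in each organ, except that *Rnaset2*-/- splenic Ly6C low macrophages had 4, and wild-type KCs had 4. Mice of both sexes were used, the age of the mice is not given in the sources used here, and nothing in the labels says that the libraries of a group came from separate animals, so p-values measure the spread between libraries.

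Lipases release fatty acids from stored or circulating lipid. LPL, hepatic lipase and endothelial lipase form a family of secreted enzymes that act on lipoproteins at the surface of vessels, the first preferring triglycerides and the last preferring the phospholipids of HDL. Inside the cell, lysosomal acid lipase (*Lipa*) hydrolyses the cholesteryl esters and triglycerides of lipoproteins and debris that macrophages take up, whereas ATGL (*Pnpla2*), hormone-sensitive lipase (*Lipe*) and monoacylglycerol lipase (*Mgll*) act in sequence on the triglycerides of lipid droplets.

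Levels are in RPM, the reads of a gene scaled to the library total, from a panel with 1 amplicon per gene, so they were compared between groups and not between genes. Libraries held 11175843 to 21167602 reads, and 3 reads, taken as the floor for counting error, corresponded to 0.1417 to 0.2684 RPM. Values in single libraries are given in the order of the replicate numbers. The log2 fold changes were computed on log2(value + 1) after scaling by relative log expression, and a gene is called higher or lower where limma gave >1.5-fold and an adjusted p below 0.05 (two-sided, Benjamini-Hochberg over all tested genes). For genes at a few RPM, the added 1 pulls the fold change below the ratio of the levels. With 3 libraries against 3 an exact permutation test cannot give a p below 0.1, and with 4 against 3 not below 0.0571.

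The labels were compared with the genes of the gates. *Fcgr4* was at 32.1 to 40.6 RPM in wild-type splenic Ly6C hi libraries and at 769 to 821 RPM in Ly6C low libraries, and *Timd4*, which encodes Tim4, was at 166 to 448 RPM in KCs and at most 66.8 RPM elsewhere. In the liver, *Fcgr4* was at 445 to 1021 RPM in the libraries labelled *Rnaset2*-/- Ly6C hi, against 74.6 to 88.3 RPM in wild-type Ly6C hi and 398 to 501 RPM in wild-type Ly6C low libraries, while *Ccr2*, a gene of Ly6C hi monocytes, was at 336 to 462 RPM in the former and 6.28 to 43.3 RPM in *Rnaset2*-/- Ly6C low libraries. The genes of RNase T2 and of Ly6C were not analysed here, so the genotype was not checked by its target. Levels of *Xist* and of Y-linked genes separated all 6 hepatic *Rnaset2*-/- libraries (*Xist* at most 0.154 RPM) from the 6 wild-type Ly6C hi and Ly6C low hepatic libraries (321 to 539 RPM). The Y-linked genes summed to 150 to 291 RPM in the former and to 0 in 2 of the latter, the other 4 of which held both *Xist* and 29 to 52.0 RPM of Y-linked genes. The sex of the mice and their genotype cannot be told apart in these comparisons. In the spleen, replicate 2 of the *Rnaset2*-/- Ly6C low libraries also had 0.781 RPM of *Xist*. In these bulk libraries, fewer cells of a type and less RNA per cell cannot be told apart.

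*Lipg*, on mouse chromosome 18, was at its highest in *Rnaset2*-/- hepatic Ly6C low macrophages, with 74.8, 264 and 146 RPM in the 3 libraries. All 3 wild-type libraries of the same subset had 0 reads. Against the floor of 3 reads per library, the *Rnaset2*-/- mean of 162 ± 95.7 RPM (SD, n = 3) was at least 603-fold higher. *Lipg* was also near the floor in wild-type KCs, at 0.246, 0.666, 0 and 0.252 RPM, so that the highest level in any wild-type hepatic library was 1.0 RPM.

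**Figure D1:**
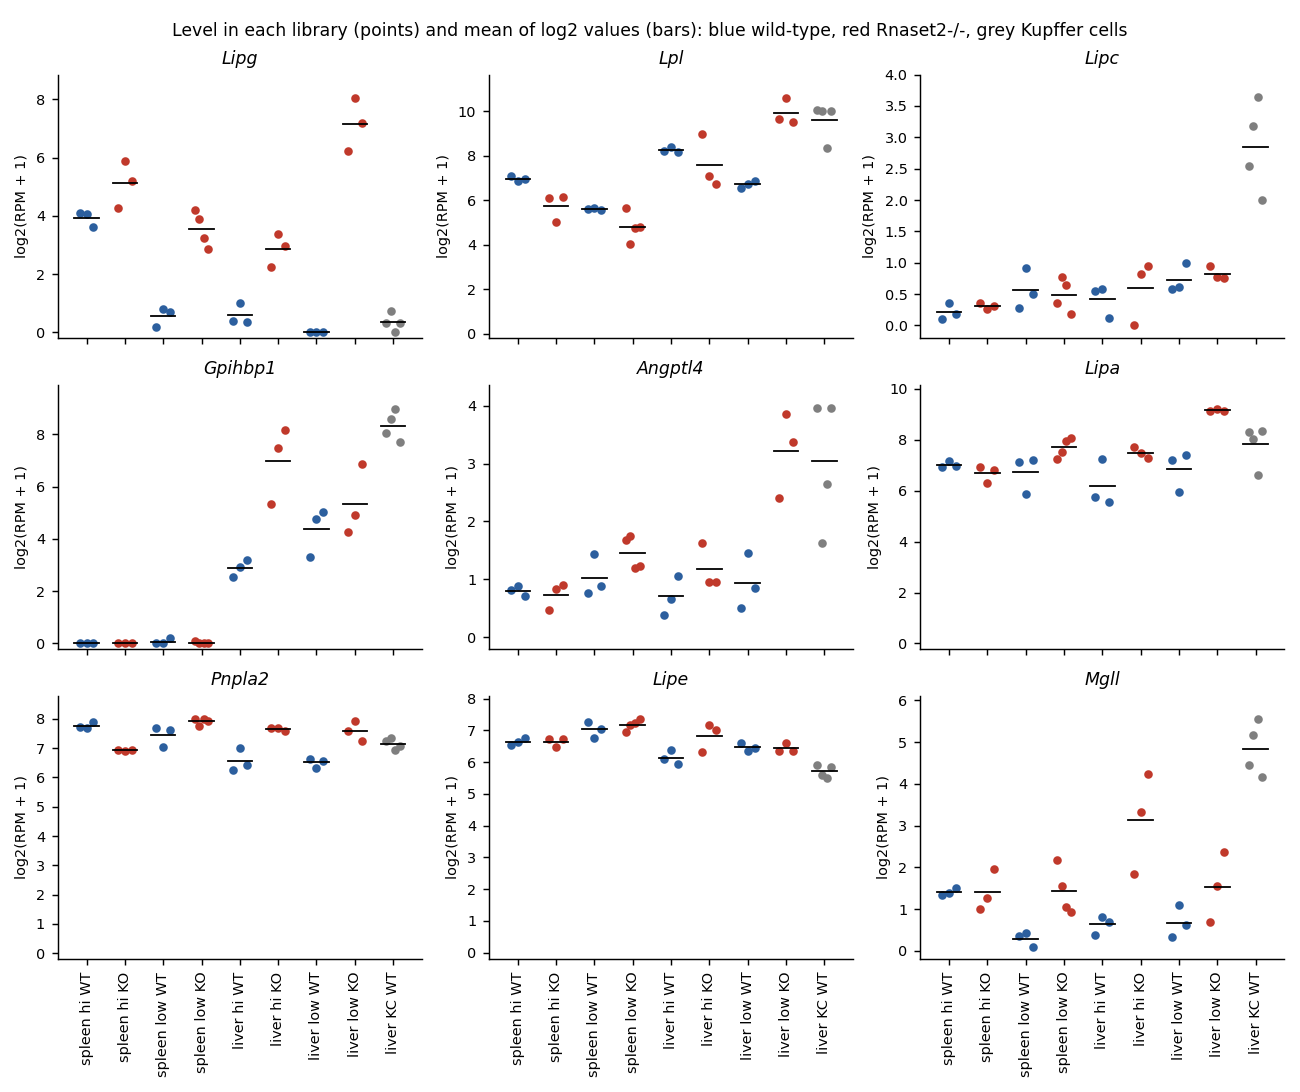
Levels of the 9 genes as log2(RPM + 1), 1 panel per gene, with 1 point per library and a bar at the mean of the log2 values of each group; WT (blue) is wild-type, KO (red) is *Rnaset2*-/- and KCs are grey. The 3 hepatic Ly6C low libraries from *Rnaset2*-/- mice lie between 74.8 and 264 RPM of *Lipg*, while *Lipg* is at 0 in the wild-type libraries of the same subset and at most 0.666 RPM in KCs.

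The spleen held *Lipg* in wild-type mice as well. Its level was 16.1, 15.8 and 11.1 RPM in wild-type splenic Ly6C hi macrophages, and 0.14, 0.755 and 0.632 RPM in wild-type splenic Ly6C low macrophages. These ranges did not overlap, and *Lipg* was lower in the Ly6C low subset by a log2 fold change of -3.25 (SE 0.222, adjusted p = 1.12e-06, limma). It passed the filter on low values (at least 1 RPM in at least 3 compared libraries) only through the Ly6C hi libraries, so no support is drawn from this p. In wild-type hepatic Ly6C hi macrophages, *Lipg* was at 0.309, 1.0 and 0.268 RPM, the first and last of these close to the floor.

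In descending order of the group means, *Lipg* was at 162 RPM in *Rnaset2*-/- hepatic Ly6C low macrophages, 37.2 RPM in *Rnaset2*-/- splenic Ly6C hi macrophages, 14.3 RPM in wild-type splenic Ly6C hi macrophages, 11.4 RPM in *Rnaset2*-/- splenic Ly6C low macrophages and 6.63 RPM in *Rnaset2*-/- hepatic Ly6C hi macrophages. The other 4 groups, all wild-type, had means from 0 to 0.53 RPM and overlapped with their neighbours in this order. Wild-type splenic Ly6C hi, *Rnaset2*-/- splenic Ly6C low and *Rnaset2*-/- hepatic Ly6C hi macrophages also overlapped from one to the next. *Rnaset2*-/- hepatic Ly6C low and splenic Ly6C hi macrophages did not overlap with the group after them, and *Rnaset2*-/- hepatic Ly6C hi macrophages did not overlap with the wild-type groups below.

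The genotype difference in *Lipg* was tested in the 3 comparisons that had not been used to choose it. In splenic Ly6C hi macrophages, *Lipg* was at 18.3, 57.6 and 35.6 RPM in *Rnaset2*-/- mice, above each wild-type library. It was called higher, with a log2 fold change of 1.30 (SE 0.336, adjusted p = 0.0121, limma), but the lowest *Rnaset2*-/- library was close to the highest wild-type one, and the call was lost without wild-type replicate 3 (adjusted p = 0.0568) and without the filter on low values (adjusted p = 0.0532). In splenic Ly6C low macrophages it was at 17.4, 13.7, 8.44 and 6.27 RPM in *Rnaset2*-/- mice, a mean of 11.4 ± 5.03 RPM (SD, n = 4) against 0.509 ± 0.325 RPM (SD, n = 3). The log2 fold change was 2.97 (SE 0.320, adjusted p = 0.00163, limma). *Lipg* passed the filter on low values there only through the *Rnaset2*-/- libraries, so no support is drawn from this p. In the hepatic Ly6C hi subset it was at 3.69, 9.42 and 6.77 RPM in *Rnaset2*-/- mice, a mean of 6.63 ± 2.87 RPM (SD, n = 3). The wild-type mean was 0.53 ± 0.41 RPM (SD, n = 3), and the fitted log2 fold change was 2.09 (SE 0.339, adjusted p = 0.00413, limma). Of the wild-type libraries in this last comparison, replicate 2 alone reached the 1 RPM of the filter. The levels of *Lipg* were thus higher in *Rnaset2*-/- mice in all 3 of these comparisons, and the ranges of the genotypes did not overlap in any of them.

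Whether the size of the rise differed between settings was tested with interaction terms. In the spleen the change was larger in Ly6C low than in Ly6C hi macrophages by 1.67 on the log2 scale (SE 0.532, adjusted p = 0.0493, limma). This difference was at the threshold, and leaving out any of 10 of the 13 splenic libraries, all 6 wild-type ones among them, took it past 0.05, with adjusted p from 0.0511 to 0.112. Between hepatic and splenic Ly6C hi macrophages the change in *Lipg* differed by 0.83 (SE 0.541, adjusted p = 0.257, limma), which did not pass the test but was called at 1.92 with an added 0.1 in place of 1 (adjusted p = 0.047) and at 1.85 with DESeq2 on the recovered reads (adjusted p = 0.0301).

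**Figure D2:**
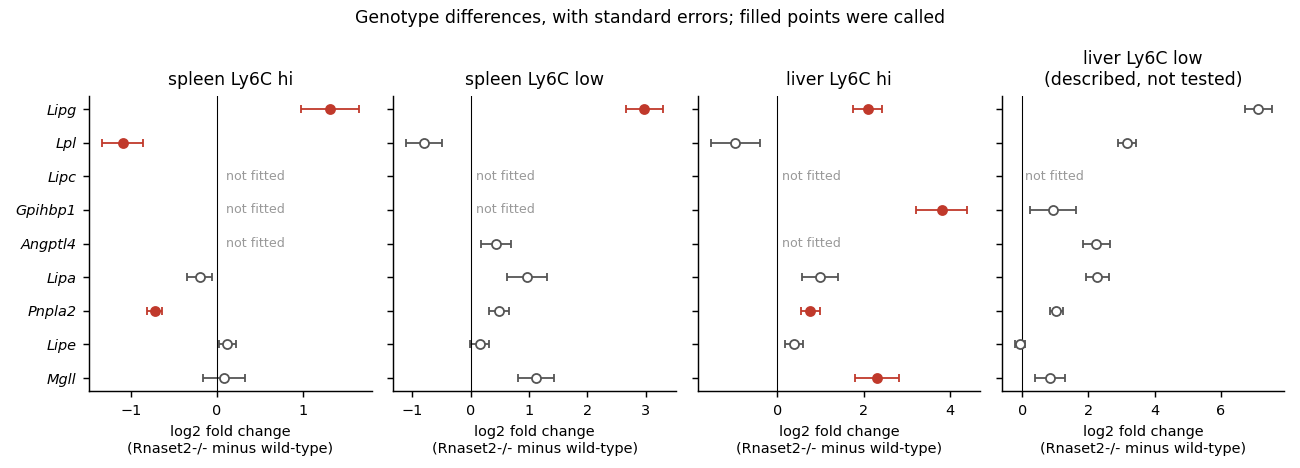
Log2 fold changes between *Rnaset2*-/- and wild-type libraries on log2(value + 1), with bars of 1 standard error; filled points were called in limma, open points were not, and genes below the filter on low values are written as not fitted. *Lipg* lies above 0 in each panel, from 1.30 in splenic Ly6C hi to 7.14 in hepatic Ly6C low macrophages, the last of which was not tested, while *Lpl* lies below 0 in 3 panels and at 3.16 in the last.

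A list of 9 genes of neutrophils and their precursors, such as *Mpo*, *Ngp* and *S100a8*, summed to 1050 to 2398 RPM in wild-type splenic Ly6C low libraries and to 39133, 22363, 4297 and 3358 RPM in the 4 *Rnaset2*-/- libraries, the same order as their *Lipg*. Between these genotypes 2 of the 9 genes were called higher and 0 lower (4.05% and 4.3% of all tested genes). Wild-type splenic Ly6C hi libraries, which held 11.1 to 16.1 RPM of *Lipg*, had a sum of 30434 to 32668 RPM, and *Rnaset2*-/- ones one of 33138 to 57745 RPM. A list of 7 erythroid genes had its highest sums in *Rnaset2*-/- Ly6C low replicates 1 and 2, at 956 and 229 RPM against 40.0 to 100.3 RPM in wild-type ones. The part of these cells or transcripts in the splenic *Lipg* values was not tested. In the hepatic Ly6C low subset, where *Lipg* was at its highest, the neutrophil list summed to 1.68 to 11.9 RPM in *Rnaset2*-/- mice and to 3.73 to 11.3 RPM in wild-type mice.

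**Figure D3:**
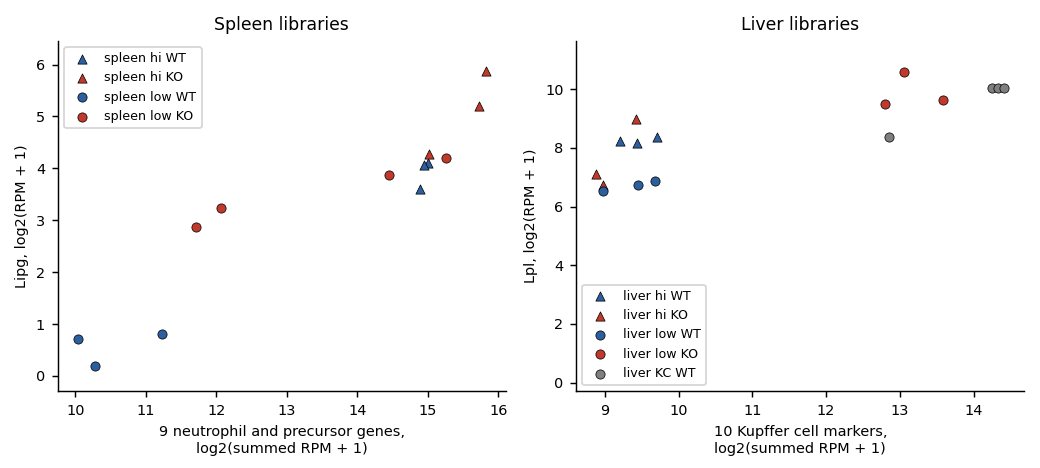
Left, *Lipg* against the summed level of 9 neutrophil and precursor genes in the 13 splenic libraries, both as log2(RPM + 1); right, *Lpl* against the summed level of 10 KC markers in the 16 hepatic libraries. In the spleen the libraries with a sum of 2398 RPM or less hold at most 0.755 RPM of *Lipg*, and in the liver the KC and *Rnaset2*-/- Ly6C low libraries, with sums of 7133 RPM or more, hold 329 to 1540.0 RPM of *Lpl*. The KC marker *Cd5l* made up 5478 to 9639 RPM of the sums in *Rnaset2*-/- Ly6C low libraries.

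Endothelial cells are the classical source of *Lipg*, and a list of 18 endothelial markers, such as *Stab2*, *Cdh5* and *Kdr*, was followed in the same libraries. The list summed to 342 to 696 RPM in wild-type and to 1484, 2296 and 5176 RPM in *Rnaset2*-/- hepatic Ly6C low libraries, all 18 genes being above 3 reads in at least 1 library of each group. *Pecam1* made up 996 to 3016 RPM of the *Rnaset2*-/- sums, and *Stab2* was at 9.16 to 56.5 RPM against 4.72 to 16.5 RPM. In the 4 KC libraries, in which it summed to 5614 to 12875 RPM, *Lipg* did not exceed 0.666 RPM. In the spleen the list summed to 1469 to 2213 RPM in *Rnaset2*-/- Ly6C low libraries against 274 to 330 RPM in wild-type ones. *Pecam1*, which myeloid cells express as well, made up 1456 to 2195 RPM of it. *Stab2* was at 0 in all 4 *Rnaset2*-/- libraries, and *Kdr* was at 0.922 to 4.12 RPM in them against 0.137 to 0.773 RPM in wild-type ones. The part of endothelial cells in the splenic *Lipg* values was not tested. Adipocyte markers, 6 in number, summed to at most 1.17 RPM in any library. Markers of T and NK cells, B cells and erythroid cells were higher in hepatic *Rnaset2*-/- than wild-type libraries of both subsets, with sums for Ly6C low macrophages of 63.4 to 193 against 6.71 to 10.1 RPM, 113 to 402 against 27.2 to 31.1 RPM and 57.4 to 155 against 1.08 to 5.84 RPM. Macrophage markers, 10 in number, summed to 7933 to 13892 RPM in *Rnaset2*-/- and 19175 to 25283 RPM in wild-type libraries of that subset. They did not move together, as 2 lay past the thresholds on the higher side and 5 on the lower (20.2% and 22.5% of all tested genes). *Adgre1* was at 529 against 306 RPM and *Fcgr4* at 3382 against 435 RPM, while *Ccr2* was at 19.4 against 172 RPM and *Cx3cr1* at 20.1 against 86.1 RPM. The part of these cells in the hepatic values was not tested. Immediate early genes, 15 in number, summed to 27222 to 39464 RPM in wild-type and 1554 to 2427 RPM in *Rnaset2*-/- hepatic Ly6C low libraries, and to 32056 to 34951 and 4225 to 8490 RPM in Ly6C hi libraries. In wild-type KCs they summed to 2166 to 3469 RPM. All 15 were called lower in KCs than in wild-type hepatic Ly6C low and Ly6C hi macrophages (24% and 25.3% of all tested genes). What set these levels was not tested, and it cannot be told apart from genotype or cell type in the hepatic comparisons.

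The other genes were compared in the same libraries, and each count is given beside the share of all tested genes that was called in the same direction. In splenic Ly6C hi macrophages, 6 of the 9 genes passed the filter on low values (at least 1 RPM in at least 3 compared libraries). *Lipg* was called higher and *Lpl* and *Pnpla2* were called lower, where 9.77% of all tested genes were called higher and 12.5% lower (7.05% and 15.6% on RPM without scaling factors). For splenic Ly6C low macrophages, of the 7 genes tested *Lipg* alone was called, against a background of 4.05% higher and 4.3% lower. Among hepatic Ly6C hi macrophages *Lipg*, *Gpihbp1*, *Mgll* and *Pnpla2* of 7 tested genes were called higher and none lower, against 15.7% and 14.9% of all tested genes (24.3% and 8.26% without scaling factors). *Lpl*, *Lipa* and *Lipe* did not pass the test there. Among hepatic Ly6C low macrophages 5 of 8 fitted genes lay past the same thresholds, all higher, where 20.2% of all tested genes were called higher and 22.5% lower, and nothing is read from this count because the genes were chosen with it known. In splenic Ly6C low macrophages *Lipg* and *Mgll* passed the filter only through the *Rnaset2*-/- libraries, and so did *Mgll* in hepatic Ly6C hi and *Lipg* in hepatic Ly6C low macrophages.

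*Lpl* encodes lipoprotein lipase and lies on chromosome 8 from 68880491 to 68907448 (GRCm38). In hepatic Ly6C low macrophages it was at 794, 1540.0 and 726 RPM in *Rnaset2*-/- mice and at 91.4, 106 and 115 RPM in wild-type mice, and the log2 fold change of 3.16 (SE 0.274) is a description. All *Rnaset2*-/- libraries of this subset were above all wild-type libraries. The opposite sign was seen in the spleen. Splenic Ly6C hi macrophages had 67.1, 31.0 and 69.6 RPM of *Lpl* in *Rnaset2*-/- mice and 134, 114 and 122 RPM in wild-type mice, and *Lpl* fell by 1.09 on the log2 scale (SE 0.238, adjusted p = 0.00515, limma). A single fit of all 9 groups did not call this fall (adjusted p = 0.132). Lists of other genes also differed in the same *Rnaset2*-/- splenic Ly6C hi libraries. Of all tested genes, 9.77% were called higher and 12.5% lower there. T and NK cell markers summed to 121 to 234 RPM against 906 to 976 RPM in wild-type libraries (9 of 10 called lower). Immediate early genes summed to 9075 to 12280 RPM against 17838 to 17931 RPM (10 of 15 called lower). Erythroid genes summed to 2.69 to 9.70 RPM against 106 to 110 RPM (3 of 3 tested called lower). Of the 9 neutrophil and precursor genes, 6 were called higher and 0 lower. The part of these genes in the *Lpl* values, and in those of *Pnpla2* in these libraries, was not tested.

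*Lpl* was not called between genotypes in the other 2 comparisons. In splenic Ly6C low macrophages it was at 48.4, 15.4, 25.5 and 26.6 RPM in *Rnaset2*-/- and 47.3, 49.3 and 45.9 RPM in wild-type mice. The difference of -0.80 (log2, SE 0.303, adjusted p = 0.122, limma) did not pass the test and was called at -1.04 without *Rnaset2*-/- replicate 1 (adjusted p = 0.0144). In hepatic Ly6C hi macrophages replicate 1 of the *Rnaset2*-/- libraries stood at 506 RPM and the other two at 135 and 104 RPM, with wild-type libraries at 297, 333 and 286 RPM. The log2 fold change was -0.97 (SE 0.574, adjusted p = 0.229, limma), and without that library it was -1.73 (adjusted p = 3.5e-05). The difference of the genotype changes in *Lpl* did not pass the test between the splenic subsets (0.28, SE 0.444, adjusted p = 0.711) or between hepatic and splenic Ly6C hi macrophages (0.16, SE 0.702, adjusted p = 0.886).

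Among wild-type macrophages *Lpl* was higher in the Ly6C hi subset of both organs. The Ly6C low subset was lower by a log2 fold change of -1.21 in the spleen (SE 0.0939, adjusted p = 2.75e-06) and of -1.66 in the liver (SE 0.145, adjusted p = 0.000156, limma), without overlap between the libraries in either organ. In the spleen 3 of 6 tested genes were called lower in Ly6C low macrophages and none higher, namely *Lipg*, *Lpl* and *Mgll*, where 19.8% of all tested genes were called lower and 13.8% higher (23.7% and 10.1% without scaling factors). *Lipg* and *Mgll* passed the filter there only through the Ly6C hi libraries, and the fit of all groups did not call *Lpl* (adjusted p = 0.0567) or *Mgll* (adjusted p = 0.0815). In the liver *Lpl* was called lower among 5 tested genes other than *Lipg*, against a background of 4.84% lower and 5.24% higher (3.58% and 6.75% without scaling factors).

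KCs held 1049.7, 1040.2, 329 and 1045 RPM of *Lpl*. Replicate 3 was apart from the other three, and it also held the lowest sum of the 10 KC markers of the 4 libraries (7417 RPM against 19398 to 21823 RPM) and the highest sums of endothelial (12875 RPM) and hepatocyte (5773 RPM) markers. *Lpl* was higher in KCs than in wild-type hepatic Ly6C low macrophages by 2.31 on the log2 scale (SE 0.373, adjusted p = 0.000439, limma). Against wild-type hepatic Ly6C hi macrophages the log2 fold change was 0.67 (SE 0.361, adjusted p = 0.127), and it was called at 1.11 without KC replicate 3 (adjusted p = 4.7e-05). *Rnaset2*-/- hepatic Ly6C low macrophages and KCs overlapped in *Lpl*, with a log2 difference of 0.83 (SE 0.442, adjusted p = 0.150, limma). The 10 KC markers, such as *Clec4f* and *Timd4*, summed to 502 to 815 RPM in wild-type hepatic Ly6C low libraries. In the *Rnaset2*-/- ones they summed to 12304, 8516 and 7133 RPM, which is not the order of *Lpl*. *Cd5l* made up 5478 to 9639 RPM of the *Rnaset2*-/- sums. Between these genotypes 6 of the 10 lay past the thresholds on the higher side and 1 on the lower (20.2% and 22.5% of all tested genes). *Clec4f* was at 17.7 to 63.3 RPM in the *Rnaset2*-/- libraries and 1674 to 5470 RPM in KCs. The part of KCs in the *Lpl* values was not tested.

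The groups thus differed between *Lipg* and *Lpl* in 2 respects. KCs were near the top for *Lpl* and near the floor for *Lipg*, and in splenic Ly6C hi macrophages *Lpl* fell where *Lipg* rose. Between the organs of *Rnaset2*-/- mice, *Lpl* in Ly6C low macrophages was at 1020.2 ± 451 RPM (SD, n = 3) in the liver and 29 ± 13.9 RPM (SD, n = 4) in the spleen, a log2 difference of 5.14 (SE 0.365, adjusted p = 9.14e-05, limma). *Lipg* in the same libraries was at 162 and 11.4 RPM, a log2 difference of 3.65 given as a description.

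*Gpihbp1* encodes the protein with which capillary endothelial cells hold LPL at their surface, and it lies on chromosome 15 from 75596628 to 75599481 (GRCm38). In the 13 splenic libraries it had 3 reads in all, of which 2 were in wild-type Ly6C low replicate 3 and 1 in *Rnaset2*-/- Ly6C low replicate 1. In the hepatic Ly6C hi subset it was at 39.1, 178 and 284 RPM in *Rnaset2*-/- and 4.86, 6.51 and 8.14 RPM in wild-type mice. It rose by 3.81 on the log2 scale (SE 0.591, adjusted p = 0.00347, limma), and by 4.58 without *Rnaset2*-/- replicate 1 (adjusted p = 1.01e-06). In the hepatic Ly6C low subset the libraries overlapped, at 18, 29 and 114 RPM in *Rnaset2*-/- and 8.86, 26.1 and 31.4 RPM in wild-type mice, and the log2 fold change of 0.94, given as a description, was 0.16 without *Rnaset2*-/- replicate 3.

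The level of *Gpihbp1* followed the endothelial markers across the hepatic libraries. In *Rnaset2*-/- Ly6C hi libraries the 18 markers summed to 688, 3473 and 4692 RPM, in the same order as *Gpihbp1*, against 121 to 186 RPM in wild-type Ly6C hi libraries. KCs had the highest sums and 261, 386, 506 and 208 RPM of *Gpihbp1*, with the highest value in replicate 3, which also held the highest sum. The correlation of *Gpihbp1* with the sum over the 16 hepatic libraries, which share groups and genotypes, was 0.95 on the log2 scale (Spearman 0.938), and that of *Mgll* was 0.881 (0.876). For *Lipg* it was 0.257 (0.068) and for *Lpl* 0.387 (0.459). These values describe 16 libraries of 5 groups, and the part of endothelial cells in *Gpihbp1* and *Mgll* was not tested.

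**Figure D4:**
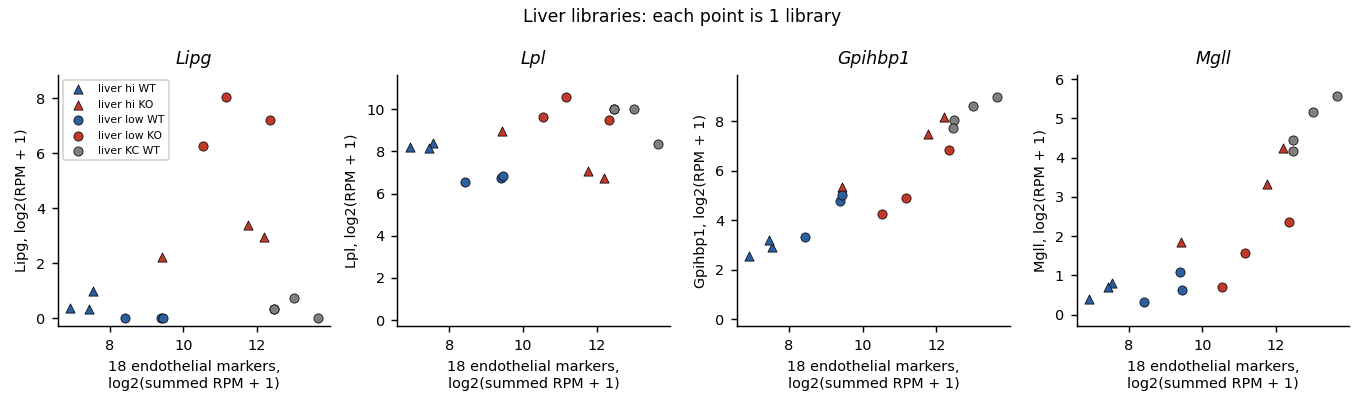
*Lipg*, *Lpl*, *Gpihbp1* and *Mgll* against the summed level of 18 endothelial markers, both as log2(RPM + 1), with 1 point per hepatic library. *Gpihbp1* and *Mgll* lie along a band from the wild-type Ly6C hi libraries (sums of 121 to 186 RPM) to the KCs (5614 to 12875 RPM), whereas the KCs lie at the bottom of the *Lipg* panel.

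*Gpihbp1* was higher in KCs than in wild-type hepatic Ly6C low macrophages by 3.39 on the log2 scale (SE 0.417, adjusted p = 6.97e-05; 2.80 without wild-type Ly6C low replicate 1) and than in Ly6C hi macrophages by 4.81 (SE 0.282, adjusted p = 1.15e-07, limma). In *Rnaset2*-/- hepatic Ly6C low macrophages it was lower than in KCs by a log2 difference of -2.47 (SE 0.571, adjusted p = 0.00665, limma), which was -3.27 without *Rnaset2*-/- replicate 3. It was higher in hepatic than in splenic *Rnaset2*-/- Ly6C low macrophages (adjusted p = 0.000359, limma), with 2098 reads against 1, and it passed the filter there only through the hepatic libraries. The ratio of the pooled levels had a 95% interval for counting error from 546 upwards. Between wild-type hepatic subsets the log2 difference of 1.37 in favour of Ly6C low macrophages did not pass the test (SE 0.406, adjusted p = 0.0660, limma). It was called at 1.90 without Ly6C low replicate 1 (adjusted p = 0.00215) and at 1.37 with the replicate number as a block (adjusted p = 0.0322, limma).

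*Angptl4*, which encodes a secreted inhibitor of LPL and a target of PPAR receptors, lies on chromosome 17 from 33773750 to 33781830 (GRCm38) and was low in most groups. It was at 4.31, 13.5 and 9.34 RPM in *Rnaset2*-/- and 0.414, 1.74 and 0.805 RPM in wild-type hepatic Ly6C low macrophages, without overlap. In *Rnaset2*-/- Ly6C low macrophages it was higher in the liver than in the spleen, where it was at 1.28 to 2.34 RPM, by 1.78 on the log2 scale (SE 0.345, adjusted p = 0.00497, limma). In KCs it was at 14.5, 2.08, 5.24 and 14.6 RPM. This was higher than in wild-type hepatic Ly6C low macrophages by 1.72 (SE 0.546, adjusted p = 0.0213, limma), a call that was lost in 4 of 7 fits without a library, namely KC replicate 1 or 4 or wild-type Ly6C low replicate 1 or 3 (adjusted p from 0.0579 to 0.0787), and higher than in Ly6C hi macrophages by 1.93 (SE 0.519, adjusted p = 0.00752). Between genotypes it was not called in splenic Ly6C low macrophages (0.43, SE 0.259, adjusted p = 0.3), and it was below the filter in both Ly6C hi comparisons, with exact permutation p = 0.9 in the spleen and 0.3 in the liver.

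*Lipc*, the hepatic lipase gene on chromosome 9 (70798128 to 70952226, GRCm38), is expressed by hepatocytes. It exceeded 1 RPM in KCs, at 4.83, 8.07, 11.4 and 3.02 RPM, and in no library of the other 8 groups. Hepatocyte markers, 11 of which are in the table, summed to 1693 to 5773 RPM in KCs and to at most 193 RPM in the other hepatic libraries, and the highest *Lipc* level and the highest sum were both in KC replicate 3. Their part in the KC values was not tested. *Lipc* was called higher in KCs than in wild-type hepatic Ly6C low and Ly6C hi macrophages and than in *Rnaset2*-/- Ly6C low macrophages, with log2 differences from KCs of 1.75, 2.07 and -1.68 (*Rnaset2*-/- minus KC, adjusted p = 0.00555, limma). It passed the filter in these comparisons only through the KC libraries. No genotype comparison could be fitted for *Lipc*, and the exact permutation p in the 3 tested comparisons were 0.3, 0.743 and 0.6.

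*Lipa*, the gene of lysosomal acid lipase, lies on chromosome 19 from 34492318 to 34527474 on the minus strand (GRCm38). Among hepatic Ly6C low macrophages it was at 561, 598 and 557 RPM in *Rnaset2*-/- mice and at 145, 60.5 and 170 RPM in wild-type mice, with a log2 fold change of 2.27 (SE 0.341) given as a description. The *Rnaset2*-/- libraries of this group were close together and lay above every other library of the series. They were above KCs, which held 312, 260, 98.4 and 323 RPM, by 1.87 on the log2 scale (SE 0.383, adjusted p = 0.00380, limma), and above *Rnaset2*-/- splenic Ly6C low macrophages by 1.49 (SE 0.235, adjusted p = 0.00201, limma).

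In the 3 tested genotype comparisons *Lipa* was not called. It was at 151, 184, 246 and 266 RPM in *Rnaset2*-/- and 139, 58.2 and 147 RPM in wild-type splenic Ly6C low macrophages, with no overlap (log2 fold change 0.96, SE 0.348, adjusted p = 0.108, limma; called at 1.14 without *Rnaset2*-/- replicate 1, adjusted p = 0.0479). Among hepatic Ly6C hi macrophages it was at 209, 179 and 155 RPM against 53.3, 151 and 46.6 RPM, again with no overlap (0.99, SE 0.410, adjusted p = 0.103), and it was called at 1.48 without wild-type replicate 2 (adjusted p = 0.0118). In splenic Ly6C hi macrophages the libraries overlapped and the log2 fold change was -0.20 (SE 0.143, adjusted p = 0.286). Replicate 2 of the wild-type Ly6C low libraries had the lowest *Lipa* of its group in both organs.

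*Pnpla2*, the gene of adipose triglyceride lipase, lies on chromosome 7 from 141455198 to 141460743 on the plus strand (GRCm38). It changed in opposite directions in Ly6C hi macrophages of the 2 organs. In the spleen it was at 121, 119 and 121 RPM in *Rnaset2*-/- mice and 210, 204 and 234 RPM in wild-type mice, and it fell by 0.72 on the log2 scale (SE 0.0879, adjusted p = 0.000179, limma). In the liver it was at 204, 203 and 191 RPM in *Rnaset2*-/- mice and 75.5, 128 and 85.2 RPM in wild-type mice, a rise of 0.76 (SE 0.217, adjusted p = 0.0318, limma). The *Rnaset2*-/- libraries were close together in both organs and did not overlap with wild-type. The rise in the liver was lost on leaving out replicate 1 or 3 of the wild-type or replicate 2 or 3 of the *Rnaset2*-/- libraries (adjusted p from 0.0587 to 0.125), but the difference between the organs, of 1.52 on the log2 scale, was called (SE 0.237, adjusted p = 0.000539, limma) and kept its call in all 12 fits without a library.

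In Ly6C low macrophages *Pnpla2* was at 251, 216, 253 and 242 RPM in *Rnaset2*-/- and 203, 129 and 196 RPM in wild-type spleens, without overlap (log2 fold change 0.49, SE 0.172, adjusted p = 0.104, limma). The change differed between the splenic subsets by 1.19 (SE 0.203, adjusted p = 0.00312). In hepatic Ly6C low macrophages it was at 192, 241 and 151 RPM in *Rnaset2*-/- and 98.0, 79.6 and 93.7 RPM in wild-type mice, with a log2 fold change of 1.04 (SE 0.186) given as a description. Against KCs, *Pnpla2* was higher in *Rnaset2*-/- hepatic Ly6C low macrophages by 0.97 (SE 0.181, adjusted p = 0.00242, limma) after scaling and by 0.44 without it (adjusted p = 0.0873), and the RPM of the 2 groups overlapped.

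The promoters of *Lipa* and *Pnpla2* are shown because these are the intracellular lipases whose *Rnaset2*-/- and wild-type libraries did not overlap in hepatic Ly6C low macrophages. The windows run from 250 bases before to 50 bases after the start site and come from RefSeq (GRCm38.p6), in which 5 of the 9 genes had an entry. Capitals mark every match on either strand to the E-box letters CACGTG, the nuclear receptor core letters AGGTCA, the CCAAT box, the GC box GGGCGG or the TATA box letters TATAAA.
*Lipa*, chr19:34527425-34527724, minus strand: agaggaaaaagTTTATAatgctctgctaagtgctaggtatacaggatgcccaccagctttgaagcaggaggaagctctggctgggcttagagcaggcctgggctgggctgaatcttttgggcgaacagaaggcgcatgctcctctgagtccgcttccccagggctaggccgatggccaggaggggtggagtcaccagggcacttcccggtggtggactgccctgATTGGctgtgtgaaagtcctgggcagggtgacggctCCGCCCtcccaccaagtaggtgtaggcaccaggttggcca
*Pnpla2*, chr7:141454938-141455237, plus strand: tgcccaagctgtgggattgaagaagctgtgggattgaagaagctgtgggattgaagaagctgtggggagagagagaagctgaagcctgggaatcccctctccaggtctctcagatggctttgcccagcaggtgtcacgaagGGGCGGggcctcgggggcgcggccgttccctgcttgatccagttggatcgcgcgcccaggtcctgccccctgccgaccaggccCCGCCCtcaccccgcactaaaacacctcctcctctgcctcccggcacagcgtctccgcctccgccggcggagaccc
The *Lipa* window holds a CCAAT box 26 bases before the start site, a TATAAA match far upstream at -239, and a GGGCGG match at 10 bases past the start. These *Lipa* matches all lie on the strand opposite to the gene, so the window shows their reverse complements. The *Pnpla2* window holds GGGCGG matches at -109 and -26. Of all 32851 windows, 35.7% hold GGGCGG, 37.4% CCAAT and 13.6% TATAAA, and neither window holds CACGTG (7.15% of all windows) or AGGTCA (16.3%). These matches are descriptions of the letters.

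*Lipe*, the gene of hormone-sensitive lipase, lies on chromosome 7 from 25379527 to 25398710 (GRCm38) and was called in none of the 3 tested genotype comparisons, with log2 fold changes of 0.12, 0.15 and 0.38 and adjusted p of 0.382, 0.564 and 0.208 (limma). In hepatic Ly6C hi macrophages the value was called at 0.59 without *Rnaset2*-/- replicate 1 (adjusted p = 0.0245). In the hepatic Ly6C low subset it was at 80.3, 96.4 and 80.8 RPM in *Rnaset2*-/- and 95.9, 81.1 and 85.7 RPM in wild-type mice, and it was the gene of the 9 with the smallest fitted difference there (-0.07). KCs held the lowest levels, 44.5 to 59.8 RPM, below wild-type hepatic Ly6C low macrophages by a log2 difference of -1.33 (SE 0.164, adjusted p = 7.28e-05; -0.74 with adjusted p = 0.00311 without scaling factors) and below Ly6C hi macrophages by -1.09 (SE 0.178, adjusted p = 0.000308, limma; -0.41 with adjusted p = 0.0657 without scaling factors). In *Rnaset2*-/- Ly6C low macrophages *Lipe* was lower in the liver than in the spleen by -0.71 (SE 0.164, adjusted p = 0.0101).

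*Mgll*, the gene of monoacylglycerol lipase on chromosome 6 (88724412 to 88828360, GRCm38), was highest in KCs, at 20.9, 34.9, 46.2 and 17.0 RPM. In the hepatic Ly6C hi subset it was at 2.61, 9.11 and 17.9 RPM in *Rnaset2*-/- and 0.309, 0.751 and 0.626 RPM in wild-type mice, a rise of 2.30 on the log2 scale (SE 0.504, adjusted p = 0.0126, limma) that was lost without wild-type replicate 1 (adjusted p = 0.0519). The order of these *Rnaset2*-/- libraries was the same as that of *Gpihbp1* and of the endothelial sum. The genotype change was larger in the liver than in the spleen by 2.28 for *Mgll* (SE 0.612, adjusted p = 0.0130) and by 3.87 for *Gpihbp1* (SE 0.680, adjusted p = 0.00114, limma), the latter with no *Gpihbp1* read in any of the 6 splenic Ly6C hi libraries. The count tests on recovered reads gave the *Gpihbp1* difference an adjusted p of 0.0505 (DESeq2) and 1.0 (edgeR). In splenic Ly6C low macrophages *Mgll* was at 3.48, 1.92, 1.06 and 0.916 RPM in *Rnaset2*-/- and 0.28, 0.343 and 0.07 RPM in wild-type mice, with a log2 fold change of 1.12 (SE 0.312, adjusted p = 0.0559) that DESeq2 and edgeR on the recovered reads called (adjusted p = 0.00364 and 0.036). Between genotypes, *Mgll* passed the filter only through the *Rnaset2*-/- libraries in hepatic Ly6C hi and splenic Ly6C low macrophages.

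In the splenic interaction test, 2 of 7 tested genes (*Lipg* and *Pnpla2*) had a higher signed genotype change in Ly6C low than in Ly6C hi macrophages, where 8.35% of all tested genes were called in this direction and 6.38% in the other (10.4% and 4.11% without scaling factors). For *Pnpla2* the 2 changes had opposite signs, at 0.49 in Ly6C low and -0.72 in Ly6C hi macrophages. Between hepatic and splenic Ly6C hi macrophages 3 of 7 genes (*Gpihbp1*, *Mgll* and *Pnpla2*) were called higher and none lower, against 17.6% and 16% of all tested genes (27.6% and 7.38% without scaling factors). As *Gpihbp1* had no read in the splenic Ly6C hi libraries, its difference restates the hepatic change, and neither DESeq2 nor edgeR called it.

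KCs were compared with 3 other hepatic groups (8 tested genes each). Against wild-type Ly6C low macrophages, *Lpl*, *Gpihbp1*, *Mgll*, *Lipc* and *Angptl4* were called higher in KCs and *Lipe* was called lower, where 26% and 24% of all tested genes were called (43.8% and 11.1% without scaling factors). Against wild-type Ly6C hi macrophages, *Gpihbp1*, *Mgll*, *Lipc* and *Angptl4* were called higher and *Lipe* lower, where the background was 29.3% and 25.3% (49.2% and 10.7% without scaling factors). *Mgll* passed the filter in the latter comparison only through the KC libraries, and so did *Lipc* in all 3 comparisons with KCs. No support is drawn from these calls. The median log2 difference of all tested genes between KCs and these groups was 0.55 and 0.67 on RPM without scaling factors. From KCs to *Rnaset2*-/- hepatic Ly6C low macrophages, *Lipa*, *Pnpla2* and *Lipe* were called higher and *Gpihbp1*, *Mgll* (-2.88, SE 0.470, adjusted p = 0.00123, limma) and *Lipc* lower, against 19.4% and 26.3% of all tested genes (8.06% and 42.5% without scaling factors). The replicate number as a block changed none of the calls of this comparison. Between hepatic and splenic *Rnaset2*-/- Ly6C low macrophages, *Lpl*, *Gpihbp1*, *Lipa* and *Angptl4* of 7 tested genes were called higher in the liver and *Lipe* lower, against 18.5% and 17.6%. *Gpihbp1* passed the filter there only through the hepatic libraries, so no support is drawn from its call. As the KC and 3 of the 4 splenic libraries had *Xist* levels of 611 RPM or more and the *Rnaset2*-/- hepatic libraries 0, sex cannot be told apart from the group in the comparison with KCs, nor, but for splenic replicate 2, from the organ.

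The genes whose group means were most like *Lipg* were found among 9676 genes that reached 10 RPM in the mean of a group, by the Pearson correlation of log2(RPM + 1) over the 9 groups. They were *Snx1* (0.940), *Plpp5* (0.930), *Ube2m* (0.929), *Mrpl16* (0.927) and *Abcc4* (0.926). *Snx1*, which encodes a sorting nexin of endosomes, was at 857 RPM in *Rnaset2*-/- and 299 RPM in wild-type hepatic Ly6C low macrophages and at 234 RPM in KCs, a smaller range than that of *Lipg*. *Plpp5*, a gene of the lipid phosphate phosphatase family, was at 47.3, 14.2 and 17.1 RPM in the same groups. For *Lpl* they were *Mob3c* (0.964), *Aif1* (0.962), *2310040G24Rik* (0.957), *Il18* (0.954) and *Hddc2* (0.951). *Aif1*, which encodes the macrophage protein Iba1, was at 864 RPM in *Rnaset2*-/- hepatic Ly6C low macrophages, 565 RPM in KCs and 172 RPM in wild-type hepatic Ly6C low macrophages, and it was also the gene most like *Lpl* over the 29 libraries (0.939), whereas *Hddc2* was at 0.626 over the libraries (rank 978) and *Abcc4* at 0.770 with *Lipg* (rank 46). These correlations rest on 9 points that share libraries and are descriptions.

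Other genes of lipid handling were followed in 4 lists. Of 27 genes of other lipases, all in the table, 10 to 12 could be tested in each genotype comparison. In splenic Ly6C hi macrophages 1 was called higher (*Ces1d*, a carboxylesterase gene) and 1 lower (*Abhd6*), both named after their values were seen because they are single calls (9.77% and 12.5% of all tested genes), and in Ly6C low macrophages none of 10 was called by limma (4.05% and 4.3%), with 4 at an unadjusted p below 0.05. Among hepatic Ly6C hi macrophages 2 of 12 were higher and none lower (15.7% and 14.9% of all tested genes): *Abhd6*, a monoacylglycerol hydrolase, at 14.4 ± 3.24 against 1.70 ± 0.910 RPM (SD, n = 3 each; log2 fold change 2.30, adjusted p = 0.00205, limma) and *Pnpla6*, a lysophospholipase, at 60.4 against 25.5 RPM (0.88, adjusted p = 0.0151). For hepatic Ly6C low macrophages the values of all 4 lists are given without p, as that comparison chose *Lipg* and the lists were written with its results known. There 4 of 12 lay past the thresholds on the higher side and 1 on the lower (20.2% and 22.5% of all tested genes). *Nceh1*, a neutral cholesteryl ester hydrolase of macrophages, was at 109 against 20.8 RPM, and *Abhd12* and *Daglb*, which act on lysophosphatidylserine and diacylglycerol, were at 867 against 403 RPM and 216 against 99.6 RPM. The median log2 fold change of the list was -0.10, -0.04, -0.15 and 0.48 in splenic Ly6C hi, splenic Ly6C low, hepatic Ly6C hi and hepatic Ly6C low macrophages, beside medians of all tested genes of 0.01 in each.

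Of 18 genes of lipase control and lipoprotein uptake in the table, the apolipoprotein gene *Apoe* was called lower in each of the 3 tested comparisons. It was at 29.8 against 64.2 RPM in splenic Ly6C hi macrophages (log2 fold change -1.06, adjusted p = 0.00878), 65.3 against 268 RPM in splenic Ly6C low macrophages (-1.96, adjusted p = 0.00282) and 82.0 against 225 RPM in hepatic Ly6C hi macrophages (-1.81, adjusted p = 0.00430, limma). Among hepatic Ly6C low macrophages it was at 257 against 472 RPM. *Cd36*, the fatty acid translocase, fell in splenic Ly6C low macrophages (126 against 563 RPM, -2.32, adjusted p = 0.0199) and was at 26.5 against 413 RPM in hepatic Ly6C low macrophages. In hepatic Ly6C hi macrophages the lipoprotein receptor gene *Lrp1* rose (989 against 396 RPM, 0.96, adjusted p = 0.0139), and of the 2 lipase maturation factors *Lmf2* rose (0.94, adjusted p = 0.0106) and *Lmf1* fell (-1.73, adjusted p = 0.00202). *Sel1l* and *Scarb1*, whose products help LPL leave the endoplasmic reticulum and take up HDL lipid, were at 428 against 141 RPM and 332 against 113 RPM in hepatic Ly6C low macrophages. In all, 0 were called higher and 1 lower of 11 tested in splenic Ly6C hi macrophages (9.77% and 12.5% of all tested genes), 0 and 3 of 10 in splenic Ly6C low (4.05% and 4.3%) and 2 and 4 of 12 in hepatic Ly6C hi macrophages (15.7% and 14.9%). In hepatic Ly6C low macrophages 3 and 3 of 13 lay past the thresholds (20.2% and 22.5%). The medians were -0.19, -0.07, -0.27 and -0.40.

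Of 19 genes of lipid droplets and intracellular lipolysis in the table, 5 of 14 tested were called higher and 1 lower in splenic Ly6C hi macrophages, where *Pnpla2* fell and 9.77% and 12.5% of all tested genes were called. Among them *Abhd5*, which encodes the coactivator of ATGL, was at 110 against 52.1 RPM (1.17, adjusted p = 0.000246), *Dgat2*, a triglyceride synthase gene, at 64.8 against 28.9 RPM (1.23, adjusted p = 0.000214) and *Fabp4*, a fatty acid carrier gene, at 13.8 against 3.41 RPM (1.83, adjusted p = 0.00116, limma). *G0s2*, which encodes the inhibitor of ATGL, fell in splenic Ly6C low macrophages (37.8 against 58.3 RPM, -0.61, adjusted p = 0.0431), the only call of 13 tested genes there (4.05% higher and 4.3% lower of all tested genes). It was at 0.822 against 111 RPM in hepatic Ly6C low macrophages. The droplet coat gene *Plin2* fell in hepatic Ly6C hi macrophages (449 against 1180.0 RPM, -1.69, adjusted p = 0.00244) and was at 396 against 1044 RPM in Ly6C low macrophages. *Fabp4* rose in hepatic Ly6C hi macrophages (125 against 16.6 RPM, 2.18, adjusted p = 0.0181), and *Dgat1* fell (-0.90, adjusted p = 0.0107). There 2 of 13 were called higher and 3 lower (15.7% and 14.9% of all tested genes), and in hepatic Ly6C low macrophages 1 and 5 of 13 lay past the thresholds (20.2% and 22.5%). The medians were 0.30, 0.24, -0.37 and -0.31.

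Of 18 genes of PPAR receptors and fatty acid oxidation in the table, *Pparg* rose in splenic Ly6C hi macrophages (33.0 against 15.1 RPM, 1.17, adjusted p = 0.000230), 1 gene was lower and 12 of 14 were not called (9.77% higher and 12.5% lower of all tested genes). *Acadm*, an acyl-CoA dehydrogenase gene, rose in splenic Ly6C low (39.5 against 21.1 RPM, 0.94, adjusted p = 0.0354), the only call of 14 (4.05% higher of all tested genes), and in hepatic Ly6C hi macrophages (45.3 against 19.3 RPM, 0.98, adjusted p = 0.0400). *Ppard* (0.81, adjusted p = 0.0410) and *Acadl* (0.59, adjusted p = 0.0398) also rose in the latter and *Ucp2* fell (-1.08, adjusted p = 0.0150, limma), with 4 of 15 tested genes called higher and 1 lower (15.7% and 14.9% of all tested genes, 24.3% and 8.26% without scaling factors). In hepatic Ly6C low macrophages 6 of 15 lay past the thresholds, all higher (20.2% of all tested genes), with *Rxra*, the partner receptor of PPARs and LXRs, at 795 against 144 RPM. The medians were 0.18, 0.14, -0.18 and 0.24.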

How the data were processed

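RNA from sorted macrophages (29 libraries, 9 groups taken from the sample labels) was measured by the authors with a targeted amplicon panel for mouse genes, 1 amplicon per gene, and deposited as RPM (the reads of a gene scaled to the library total) with mm10 as the genome build. The values came out as whole reads within 0.1 read, so reads were recovered, which gave the depths and the count tests. The mean and spread of a group are of RPM. For each comparison the RPM were scaled by relative log expression, genes reaching 1 RPM in 3 or more of the compared libraries were kept, and log2(value + 1) was fitted with limma 3.58.1 (R 4.3.3, empirical Bayes with trend, two-sided, Benjamini-Hochberg). The 10 group comparisons and 2 interaction terms were fitted on the libraries of the groups involved.

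Alternatives were an added value of 0.1, no filter, no scaling factors, TMM factors, 1 fit of all groups, the replicate number as a block, DESeq2 1.42.0 and edgeR 4.0.16 on the recovered reads, and leaving out each library. Same-numbered libraries deviated together in every pair (correlations of 0.102 to 0.327) only between *Rnaset2*-/- hepatic Ly6C low macrophages and KCs, where the block changed no call. These groups differ in genotype, so a shared number there cannot mean a shared animal. Between wild-type hepatic Ly6C hi and Ly6C low macrophages the correlations were 0.553, -0.12 and -0.137 for replicates 1, 2 and 3. Replicate 1 of both subsets had 0 RPM of Y-linked genes, and replicates 2 and 3 of both held 29 to 52.0 RPM. Whether these subsets shared animals is not given. Except in the fit with the block, the numbers were taken as names. No 2 libraries of a group were alike within sampling noise. The mean chi-square per gene between libraries of a group was lowest for wild-type splenic Ly6C hi macrophages. It was 6.17 to 8.75 there and 11 to 211 in the other groups. Whether these close libraries came from separate animals is not given, and their spread enters the p-values of each comparison that uses them. The scripts were tested on simulated data.

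The genes and the lists were chosen with earlier results of these data known. Genes of a list were named by a rule of up to 3 per direction and comparison, with the largest change among called genes whose mean reached 10 RPM in a compared group and whose groups did not overlap. Coordinates are from an annotation of GRCm38, and counting intervals cover counting error only.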

Additional observations from a re-analysis of the deposited data

Results flagged for a closer look

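*Lpl* in KC replicate 3 stood at 329 RPM, far below the 3 other KC libraries, and *Gpihbp1* in replicate 1 of the *Rnaset2*-/- splenic Ly6C low libraries stood at 0.071 RPM (1 read) against 0 in the 3 others. These 2 came from 18 tests of a single library against the rest of its group, of which chance flags about 1 in 20. For *Gpihbp1* the 3 other libraries had no spread, so that rate does not apply and nothing is read from the flag.

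The genotype change differed between settings for 4 genes by limma. With its sign, it was higher in splenic Ly6C low than in splenic Ly6C hi macrophages by 1.67 on the log2 scale for *Lipg* and by 1.19 for *Pnpla2*. The *Lipg* difference was at the threshold (adjusted p = 0.0493, limma) and lost its call in 11 of 20 alternative fits. The signed change was also higher in hepatic than in splenic Ly6C hi macrophages by 3.87 for *Gpihbp1*, 2.28 for *Mgll* and 1.52 for *Pnpla2*, the comparison in which the hepatic libraries of the 2 genotypes also differed in sex. *Pnpla2* changed by -0.72 in splenic Ly6C hi, 0.49 in splenic Ly6C low and 0.76 in hepatic Ly6C hi macrophages. *Gpihbp1* had no read in the splenic Ly6C hi libraries, so its difference restates the hepatic change, and neither DESeq2 nor edgeR called it.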

How the results depend on the processing

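Of the values recomputed under other settings, 1198 of 1297 (the values as reported among them) stayed on their side of the threshold with the same sign. Another 33 lost a call, 33 gained one, 22 changed sign and 11 moved, and the cause was not tested. Of the 9 genes, 1 was called between genotypes in splenic Ly6C low macrophages, 2 with an added value of 0.1, 3 with DESeq2 and 2 with edgeR. Between wild-type splenic subsets 3 were called, and 1 in the fit of all groups. Between wild-type hepatic subsets 1 was called, and 2 with DESeq2, edgeR or the replicate block. In the splenic interaction 2 were called, 1 without the filter, and 3 with an added 0.1, DESeq2 or edgeR, which also called *Mgll* (2.40, 2.74 and 2.75 on the log2 scale). Leaving out a library gave 1 to 3 calls between genotypes in splenic Ly6C low and 2 to 5 in hepatic Ly6C hi macrophages, 1 to 4 between wild-type splenic and 1 to 2 between wild-type hepatic subsets, and 1 to 2 in the splenic interaction.

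Sign changes concerned differences that had not been called. For *Pnpla2* between KCs and wild-type hepatic Ly6C hi macrophages the log2 difference was 0.58 without scaling factors, 0.03 in the fit of all groups, and -0.27 to 0.06 without a library. With the replicate block, *Mgll* was at -0.00 between organs and *Lipe* at -0.06 in the splenic interaction. Leaving out a library gave -0.19 to 0.30 for *Mgll* in splenic Ly6C hi macrophages, -0.36 to 0.30 for *Lipa* and -0.28 to 0.03 for *Pnpla2* between wild-type splenic subsets, and -0.29 to 0.02 for *Pnpla2* between hepatic ones. Between KCs and wild-type hepatic Ly6C low macrophages it gave -0.06 to 0.79 for *Lipa* and -0.03 to 0.13 for *Pnpla2*, and between organs -0.29 to 0.57 for *Mgll*. In the interactions it gave -0.08 to 0.54 (spleen) and -0.61 to 0.65 (organs) for *Lpl* and -0.11 to 0.14 for *Lipe*.

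The fitted difference of *Lipg* in hepatic Ly6C low macrophages depended on the value added to 0 reads, at 7.14 in the report, 10.45 with an added 0.1, 13.25 with DESeq2 and 13.91 with edgeR. Over the whole table, 417 genes were called higher and 443 lower between genotypes in splenic Ly6C low macrophages, against 250 and 265 without the filter, 718 and 640 in the fit of all groups, 907 and 693 with DESeq2, and 191 and 166, 119 and 71, and 98 and 47 without wild-type replicates 1, 2 and 3 and 240 and 257 without *Rnaset2*-/- replicate 2. In splenic Ly6C hi macrophages the 1016 and 1295 called genes became 533 and 744 in the fit of all groups. In hepatic Ly6C hi macrophages the 1717 and 1634 became 876 and 900 or 933 and 898 without wild-type replicate 1 or 3, and 672 and 1022 or 753 and 1069 without *Rnaset2*-/- replicate 2 or 3. Between wild-type hepatic subsets 612 and 566 became 400 and 324 without Ly6C hi replicate 3 and 274 and 272 without Ly6C low replicate 3. In the splenic interaction 905 and 691 became 475 and 395, 502 and 425, or 496 and 391 without wild-type Ly6C hi replicate 1, 2 or 3, 600 and 457 without wild-type Ly6C low replicate 3, and 572 and 384 without *Rnaset2*-/- Ly6C hi replicate 2. The replicate block, beyond the values above, lost the calls of *Pnpla2* between genotypes in hepatic Ly6C hi macrophages (adjusted p = 0.0575, limma), *Angptl4* between KCs and wild-type Ly6C low macrophages (0.0725) and *Lipe* between organs (0.0533). At a floor of 3 reads, levels under 0.1417 to 0.2684 RPM could not be told from 0.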
